A study of Mus musculus with 4 samples.

Results

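The 2 arrays described here hold RNA of epigonadal white adipose tissue from male mice of 2 floxed lines that carry no Cre recombinase. They are 2 of the 4 arrays of a study of mice that lack insulin receptor substrates in the liver. The Irs1/2-flox control carries loxP sites around both insulin receptor substrate genes, and the Irs1/2:FoxO1-flox control carries them around the transcription factor gene Foxo1 as well. The other arrays come from LDKO mice, which are Irs1/2-flox with Albumin-Cre, and from LTKO mice, which are Irs1/2:FoxO1-flox with Albumin-Cre. The albumin promoter drives Cre in hepatocytes, so fat itself is not the tissue aimed at. All mice were fasted before the tissue was taken. An age of 4 months is stated for LDKO and LTKO and none for the controls. The labels name no strain, and they do not say how many mice an array holds. The controls were chosen by genotype from the labels, and a difference is the value of the FoxO1-flox line minus that of the Irs1/2-flox line on the log2 scale, where 1 unit is 2-fold. With 1 array per genotype there is no replicate error and no test, and how precise a value is depends on that single array.

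The epididymal fat pad is a visceral depot that lies against the epididymis and testis and is covered by mesothelium, a thin epithelium. Besides adipocytes it holds blood vessels with smooth muscle and pericytes, fibroblast-like progenitors, macrophages and other immune cells. A dissected pad can also carry some of the tissue beside it. Adipocytes store fatty acids as triglyceride and release them in fasting, and insulin drives glucose uptake and fat synthesis in them.

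The arrays measured 22180 genes, each read from its brightest probe on average among those with exactly 1 gene symbol. Of these, 11432 genes entered the comparison, because the higher of their control values reached the level of the median gene, 5.15 on the log2 scale. All 19 measured adipocyte markers entered. The adiponectin gene Adipoq was 10.49 in the Irs1/2-flox control and 10.48 in the other control, and the fatty acid binding protein gene Fabp4 differed by −0.03. The Irs1/2:FoxO1-flox control had 13 of the 19 markers higher and 6 lower, with a median of 0.05. The largest values were −0.77 for leptin (Lep), 0.52 for the droplet coat gene Plin1 and 0.42 for lipoprotein lipase (Lpl), so the markers were present in both arrays but not all equal. Without Cre the floxed genes are not deleted, and their signal was near equal or higher in the Irs1/2:FoxO1-flox control. Irs2 was 7.96 and 7.93 and Foxo1 was 8.22 and 8.37 in the same order. Irs1 was 6.96 and 7.86 by its brighter probe, a difference of 0.90. The other Irs1 probe differed by 0.04 but was under 5.15 in both controls, so the direction of Irs1 rests on 1 probe.

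Most genes lay close together. The median size of the difference was 0.16, 71.3% of the entered genes were within 1.2-fold and 95.5% within 1.5-fold, and the median of the signed differences was 0.03. Pearson's r between the controls was 0.991 over all genes. Among the genes, 30 were at least 2-fold higher in the Irs1/2:FoxO1-flox control, which is 0.262% of those that entered, and 58 were at least 2-fold lower, which is 0.507%. Together the 88 genes are 0.77% of the total. At 1.5-fold the shares were 2.06% higher and 2.48% lower. The 2-fold genes were found at all levels. Of 4 equal groups of genes by mean level, the lowest held 9 higher and 19 lower genes and the highest 8 and 8.

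**Figure D1:**
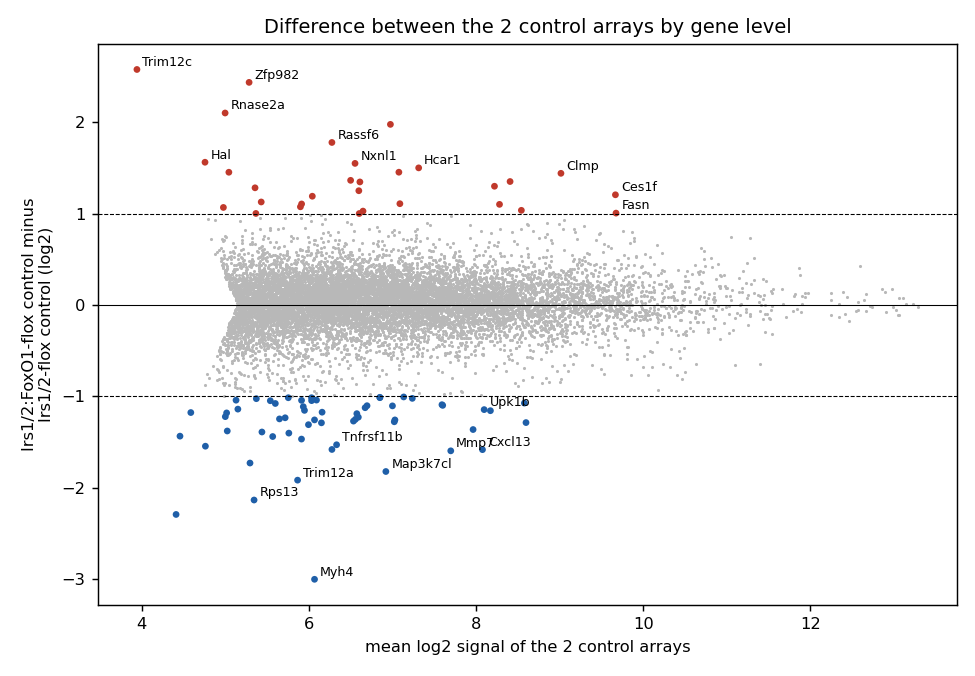
The difference between the control arrays (vertical axis, FoxO1-flox line minus Irs1/2-flox line, log2) is plotted against their mean log2 signal (horizontal axis), 1 point for each of the 11432 genes that entered. Dashed lines mark 2-fold; red points are the 30 genes at least 2-fold higher and blue points the 58 at least 2-fold lower, from Trim12c at 2.58 down to Myh4 at −3.01.

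The gene furthest apart belongs to skeletal muscle. Myh4, the myosin heavy chain of the fastest fibres, read 7.57 in the Irs1/2-flox control and 4.56 in the other control, with 4.95 in LDKO and 4.56 in LTKO, so the Irs1/2-flox control alone was high. Values under 5.15 are not shown to be above background, so a difference against them has no exact size. Of the 88 genes 30 had the lower control value under that level, 9 of the higher and 21 of the lower ones, and entered through the array where they were high, as Myh4, Ttn, Trim12c, Zfp982, Rps13 and Rnase2a did. Where 4 values follow a gene here and below, the 2 controls come first, the Irs1/2-flox control leading, and then LDKO and LTKO. Titin (Ttn), the giant spring protein of the sarcomere, was 5.71, 4.33, 4.42 and 4.28. Fast troponin T (Tnnt3) was 6.55 in the Irs1/2-flox control and between 5.45 and 5.64 in the others, just under 2-fold between the controls. The calcium pump of fast fibres, Atp2a1, differed by −0.83 and nebulin (Neb), a thin filament protein, by −0.71. Of the 23 measured genes of fast fibres, 12 entered, 11 of these were lower and 1 higher in the Irs1/2:FoxO1-flox control, and 1 was 2-fold lower, with a median of −0.55. Over all 23 the median was −0.39, with 20 lower. Of 27 genes of slow fibres and of striated muscle in general only 5 entered, Ttn and Neb among them, and over all 27 the median was −0.21, with 20 lower. Over all entered genes 55.5% were higher and 44.5% lower. The mean level of the 23 fast-fibre genes was 5.42 in the Irs1/2-flox control and between 4.87 and 4.98 in the other arrays. Not all members had this order. Myl1 was highest in LDKO, at 6.86, 6.31, 7.82 and 6.16, and Tnni2 was 6.10, 5.48, 5.99 and 5.46. Casq1 was the entered member that was higher, by 0.46. Several defining genes stayed below the median gene in every array, among them Myh1 at 3.83 or less and Myh2 at 3.66 or less. Here and below, in RNA of a whole tissue, fewer cells of a type and less RNA per cell cannot be told apart.

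Mesothelial markers leaned the same way. All 22 measured markers entered, 20 of them were lower and 2 higher in the Irs1/2:FoxO1-flox control, 8 were at least 1.5-fold lower and 2 were 2-fold lower, and the median was −0.32 against 0.03 for all genes. Upk1b, a uroplakin of epithelial surfaces, read 8.67 in the Irs1/2-flox control and 7.52 in the other control, with 7.91 in LDKO and 7.30 in LTKO. Slpi, a secreted protease inhibitor, was 7.36, 6.34, 6.53 and 5.86 in this order. The Irs1/2-flox control was the highest array for both. Gpm6a was 9.91 there and between 8.99 and 9.16 elsewhere, and the epithelial transcription factor gene Bnc1 was 6.06 there and between 5.26 and 5.52 elsewhere. Keratins 8 and 18, which simple epithelia share, took another order. Krt8 was 7.05, 6.29, 6.54 and 7.20, so LTKO was as high as the Irs1/2-flox control. Krt18 differed by −0.82 between the controls by its brighter probe and by −0.08 by the other, which was under the entry level in every array. The mean level of the 22 markers was 7.21 in the Irs1/2-flox control, 6.76 in the Irs1/2:FoxO1-flox control, 6.64 in LDKO and 6.72 in LTKO.

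Genes of motile cilia, the beating organelles of ciliated epithelia, formed the list with the most negative median over all measured members, −0.47. This list was added after the values had been seen, so its direction is a description only. Of its 45 measured genes 20 entered, and 19 of these were lower in the Irs1/2:FoxO1-flox control, 6 of them 2-fold, with a median of −0.83. Of all 45, 40 were lower and 5 higher. Stoml3 read 7.07 in the Irs1/2-flox control and 5.48 in the other control, with 5.93 in LDKO and 7.15 in LTKO. Sentan (Sntn), a protein of the ciliary tip, was 6.64, 5.17, 6.25 and 7.18 in the same order. The radial spoke gene Rsph4a was 7.18, 5.93, 6.55 and 7.62. For each of them the Irs1/2:FoxO1-flox control was the lowest array, LTKO the highest, and the Irs1/2-flox control and LDKO lay between. Rgs22 (−1.25), Cdhr3 (−1.17) and Ak7 (−1.11), an adenylate kinase of the axoneme, were the others at least 2-fold lower. Foxj1, the transcription factor gene that switches on motile cilia, was 5.45 and 5.50 in the controls and 6.10 in LTKO.

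Most genes of other tissues beside the pad, and of liver, were under the entry level in both controls. Of 21 measured epididymis genes 2 entered, Lcn12 and Cuzd1, and Cuzd1 was 7.28, 6.69, 6.27 and 7.58. The luminal glutathione peroxidase gene Gpx5 was 3.32 in the Irs1/2-flox control and 2.97 in the Irs1/2:FoxO1-flox control, against 8.28 in LTKO. Of 16 testis and sperm genes 4 entered, with the sperm tail gene Odf1 at 10.34 and 10.66 in the controls by its brighter probe and Spata18 at −0.73. The other Odf1 probe was 4.60 and 4.54 in the controls, under the entry level, and 5.79 in LTKO, so a high Odf1 level rests on 1 probe. Of 17 liver genes 3 entered, with albumin (Alb) at 7.10 and 6.93 and Tat at −0.52. Over all measured members the medians of these lists were −0.03 for epididymis, −0.03 for testis and −0.14 for liver.

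**Figure D2:**
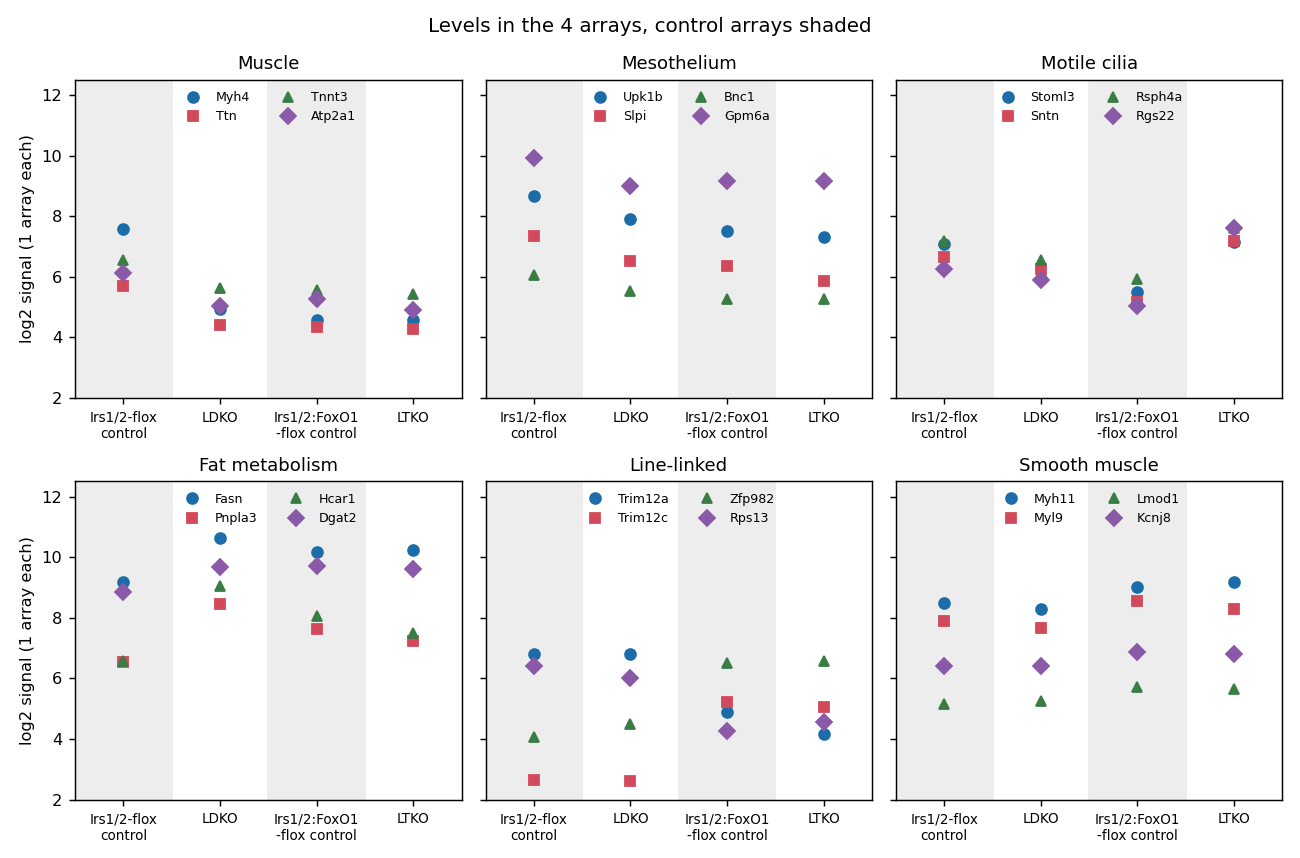
Log2 signal (vertical axis) of 24 genes in the 4 arrays (horizontal axis), 4 genes in each panel with 1 point per array; the control arrays are shaded. The 4 muscle genes shown are high in the Irs1/2-flox control alone, the cilia genes shown are lowest in the Irs1/2:FoxO1-flox control, and the genes of the panel named line-linked split the arrays by floxed line.

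Among immune cells, mast cell and macrophage genes were mostly lower in the Irs1/2:FoxO1-flox control. Cpa3, a mast cell protease, read 7.55 in the Irs1/2-flox control and 6.45 in the other control, with 7.11 in LDKO and 6.43 in LTKO. The stem cell factor receptor gene Kit was 6.54 and 5.59 in the controls. Only 3 of the 10 measured mast cell genes entered, and over all 10 the median was −0.29, with 9 lower. Of 25 macrophage markers, all of which entered, 18 were lower in the Irs1/2:FoxO1-flox control with a median of −0.13. The protease gene Ctss, at 9.42, 8.58, 9.27 and 8.52, was low in both arrays of the FoxO1-flox line. Of 11 entered markers of lipid-associated macrophages 8 were lower, led by the macrophage elastase gene Mmp12 at −1.31, with Trem2, a lipid receptor of these cells, higher by 0.61. Il7r, the receptor of interleukin 7 on lymphoid cells, differed by −1.39, while the T cell gene Cd3e differed by 0.06. Cxcl13, a chemokine that attracts B cells, was 8.87 and 7.28 in the controls.

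Vessel markers leaned the other way. Of 20 entered smooth muscle and pericyte genes 14 were higher in the Irs1/2:FoxO1-flox control, with a median of 0.35 and a mean of 0.20. Smooth muscle myosin (Myh11) read 8.50 in the Irs1/2-flox control and 9.01 in the other control, with 8.30 in LDKO and 9.19 in LTKO. The myosin light chain gene Myl9 was 7.89, 8.54, 7.66 and 8.28, and the leiomodin gene Lmod1 was 5.16, 5.73, 5.26 and 5.65. Both arrays of the FoxO1-flox line were above both arrays of the other line for each of these. Smooth muscle actin (Acta2) did not share this order, since it was 10.23 in the Irs1/2-flox control and 10.09 in the Irs1/2:FoxO1-flox control. Cald1 (−0.48), Mcam (−0.41) and Synpo2 (−0.31) were lower. The proteoglycan gene Cspg4, a pericyte marker, had the largest value of the list at 0.82. Of 18 blood endothelial markers 15 were higher, with a median of 0.14, von Willebrand factor (Vwf) at 0.68 and Plvap at 0.60. Of 6 entered lymphatic markers 5 were lower, with Lyve1 at −0.70. Stromal progenitor markers were split, with 9 of 17 higher and a median of 0.04, although Anxa3 (−0.85) and Clec3b (−0.78) were lower.

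Genes of fat storage were higher in the Irs1/2:FoxO1-flox control, beside an adipocyte marker median of 0.05. Of 20 fatty acid synthesis genes 17 were higher, 2 of them 2-fold, and the median was 0.34. Fatty acid synthase (Fasn) read 9.17 in the Irs1/2-flox control and 10.18 in the other control, with 10.65 in LDKO and 10.25 in LTKO. The lipase-like gene Pnpla3 was 6.53, 7.64, 8.45 and 7.25 in this order. For both the Irs1/2-flox control was the lowest array, although the Fasn difference of 1.01 falls to 0.98, under 2-fold, when a curve of difference on level is removed. Slc25a1, the mitochondrial citrate carrier that exports carbon for fat synthesis, differed by 0.68 and Elovl6, a fatty acid elongase, by 0.58. Of 14 entered genes of triglyceride assembly 12 were higher and 5 at least 1.5-fold so, with a median of 0.37, and of 0.24 over all 16 measured. The enzyme of the last step, Dgat2, was 8.86 in the Irs1/2-flox control and between 9.61 and 9.72 elsewhere. Agpat2 differed by 0.83, Dgat1 and Mogat1 each by 0.80 and Gpd1, which supplies glycerol phosphate, by 0.73.

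Hcar1, Hcar2 and Cidea had the largest differences in the list of lipolysis and lipid droplet genes. The lactate receptor gene Hcar1 read 6.56 in the Irs1/2-flox control and 8.06 in the other control, with 9.04 in LDKO and 7.51 in LTKO. Hcar2, which encodes the receptor of niacin and of the ketone body hydroxybutyrate, was 5.65, 6.64, 6.78 and 6.31. The lipid droplet gene Cidea was 5.97, 7.22, 7.43 and 6.93. The Irs1/2-flox control was again the lowest of the arrays. The list had 13 of 18 members higher and a median of 0.16. In it the triglyceride lipase gene Pnpla2 differed by 0.12, the hormone-sensitive lipase gene Lipe by 0.21, monoglyceride lipase (Mgll) by 0.68.

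Genes that burn fuel were higher together by small amounts. Of 21 pyruvate and TCA cycle genes 20 were higher, with a median of 0.30, pyruvate carboxylase (Pcx) at 0.66 and citrate synthase (Cs) at 0.49. Of 21 entered fatty acid oxidation genes 18 were higher, with a median of 0.32. The peroxisomal enzyme gene Ehhadh differed by 0.89 and the very long chain dehydrogenase gene Acadvl by 0.69, while Acadl differed by −0.59. In the respiratory chain 24 of 27 entered complex I genes were higher with a median of 0.23, and 28 of 34 genes of the other complexes and cytochrome c with one of 0.24, none of them 1.5-fold apart. Branched-chain amino acid breakdown had 14 of 19 genes higher and a median of 0.19, with Bckdhb, a subunit of the committed step, at 0.77 and Pccb at 0.72. Glycolysis had a median of 0.18 over 14 genes, with Pfkfb3 at 0.71. In all of these lists the Irs1/2-flox control had the lowest mean level of the 4 arrays. Lep, the adipokine that rises with fat mass, was 10.24 in the Irs1/2-flox control and 9.47 in the other, with 11.09 in LDKO and 10.20 in LTKO.

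Genes known to respond quickly to stimuli were lower in the Irs1/2:FoxO1-flox control. Of 22 entered immediate early genes 21 were lower, with a median of −0.45, and of −0.37 over all 25 measured. The nuclear receptor gene Nr4a3 read 7.64 in the Irs1/2-flox control and 6.63 in the other control, with 6.16 in LDKO and 6.61 in LTKO. Fos differed by −0.85, Ccn1 by −0.72 and Jun by −0.67. Of 20 glucocorticoid-responsive genes 16 were lower, with a median of −0.30. The cell cycle inhibitor gene Cdkn1a was 9.11 and 8.04 in the controls, Errfi1, a brake on growth factor receptors, 9.30 and 8.45, and the metallothionein gene Mt2 11.72 and 11.07. Of 17 heat shock and chaperone genes 15 were lower, with a median of −0.27 and Hsph1 at −0.87. In the immediate early and glucocorticoid lists the Irs1/2-flox control had the highest mean level of the 4 arrays, 7.01 and 8.97.

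**Figure D3:**
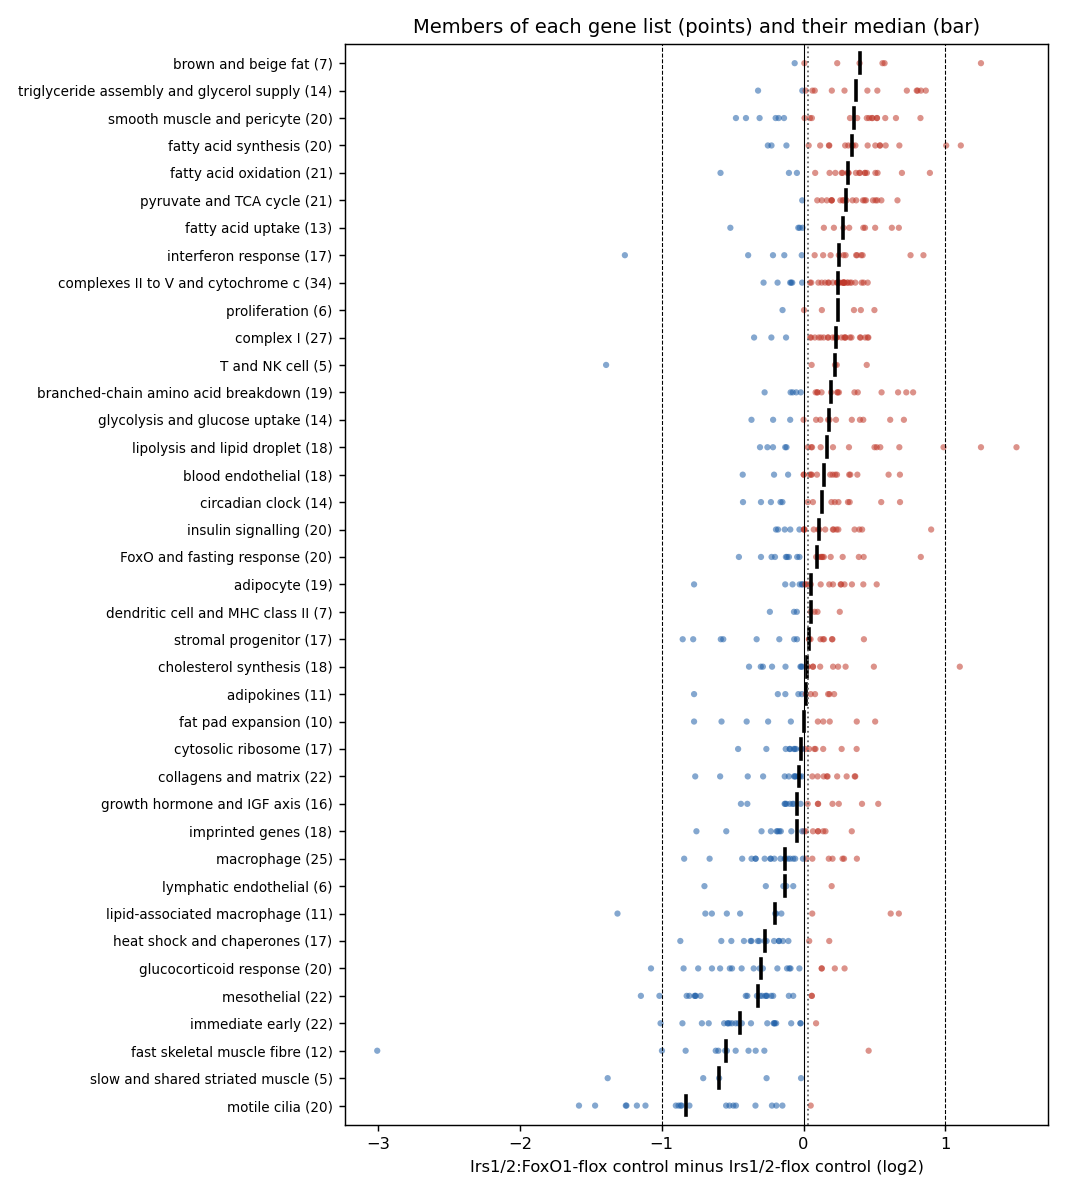
Each row is a gene list with at least 5 entered members (number in brackets), each point a member's difference between the controls (horizontal axis, log2) and each bar the list's median; the dotted line is the median of all entered genes, 0.03, and dashed lines mark 2-fold. The medians of the fat synthesis, triglyceride assembly and respiration lists lie to the right of zero, and those of the muscle, immediate early, mesothelial and motile cilia lists to the left.

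By their labels LDKO and LTKO carry the same floxed genes as the controls, line by line, and they share no array with the controls, so LTKO minus LDKO sets the lines against each other again, with Cre in hepatocytes added. It also sets loss of Foxo1 in hepatocytes against its presence, and for every value of this pair below the line and that loss cannot be told apart. Of the 30 genes 2-fold higher in the Irs1/2:FoxO1-flox control, 21 were also higher in LTKO than in LDKO and 7 were 2-fold higher. Among all genes that entered, 57.3% were higher in LTKO and 0.971% were 2-fold higher. Of the 58 genes 2-fold lower, 30 were also lower in LTKO and 12 were 2-fold lower, where 42.7% of all genes were lower and 0.49% 2-fold lower. A further 13 genes were 2-fold apart in the opposite direction, 2 of the higher and 11 of the lower ones. Over the 11134 genes that entered both pairs, Pearson's r of the differences was 0.0341 and Spearman's rho 0.0400, across genes that share arrays within each pair.

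**Figure D4:**
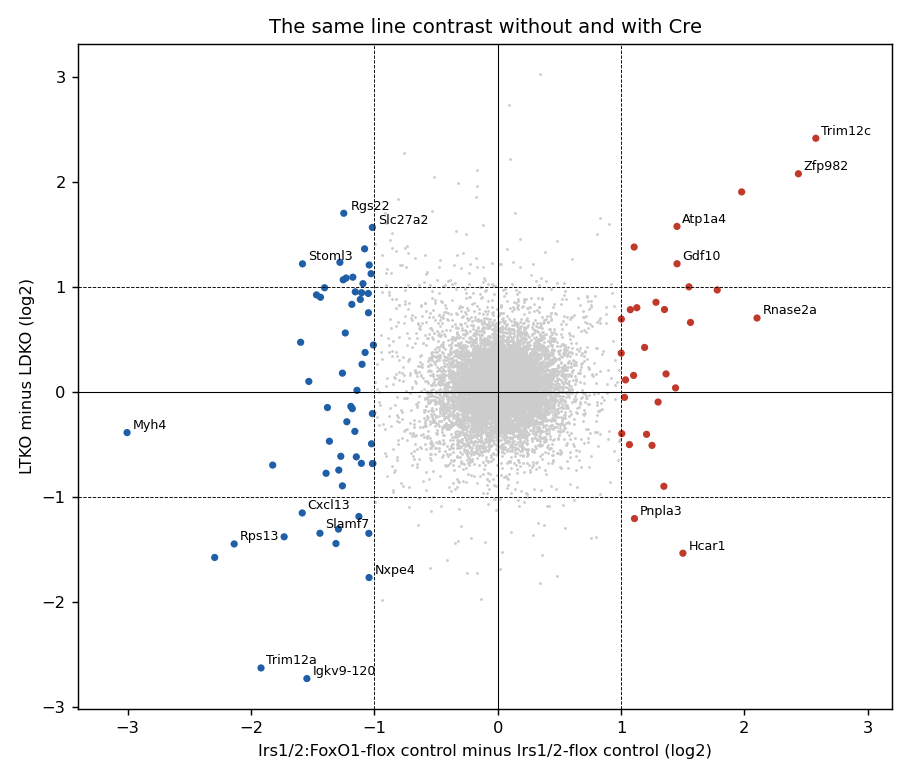
Difference between the controls (horizontal axis, log2) against LTKO minus LDKO (vertical axis, log2) for the genes that entered, grey; the 30 genes 2-fold higher in the Irs1/2:FoxO1-flox control are red and the 58 lower ones blue, and dashed lines mark 2-fold. Trim12c and Zfp982 lie at the upper right and Trim12a at the lower left, 2-fold apart in both pairs, while Myh4 lies at −0.38 on the vertical axis and Hcar1 and Rgs22 have opposite signs.

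The 19 genes that were 2-fold apart in the same direction in both pairs split the arrays by the floxed line, 7 of them higher and 12 lower in the FoxO1-flox arrays, on 12 chromosomes. Trim12a and Trim12c, neighbouring genes of a family of antiviral ubiquitin ligases, were among the furthest apart and differed in opposite directions. Trim12a read 6.82 in the Irs1/2-flox control and 4.90 in the other control, with 6.80 in LDKO and 4.17 in LTKO. Trim12c was 2.65, 5.23, 2.63 and 5.05 in the same order. For each gene the arrays of a line were within 1 unit of each other and apart from those of the other line. They were also the only 2 of the 19 genes with no more than 10 measured genes between them. Their promoters are printed to show how alike the letters before the 2 starts are. Transcript and probe sequences were not compared, so whether a probe reads both genes was not tested. Each gene's own level stays uncertain. The sequences are the 250 bases before the start of each gene, 5′ to 3′, from the RefSeq annotation of GRCm38.p6, at chr7:104315496-104315745 and chr7:104353350-104353599, both on the minus strand, and capitals mark a match on the opposite strand to GAAA, any 2 bases and GAAA, a core of the interferon-stimulated response element.

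Trim12a: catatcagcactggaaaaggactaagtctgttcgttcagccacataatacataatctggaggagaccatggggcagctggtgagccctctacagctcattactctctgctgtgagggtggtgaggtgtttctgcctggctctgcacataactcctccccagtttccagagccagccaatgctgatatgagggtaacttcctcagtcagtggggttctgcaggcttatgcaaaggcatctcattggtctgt
Trim12c: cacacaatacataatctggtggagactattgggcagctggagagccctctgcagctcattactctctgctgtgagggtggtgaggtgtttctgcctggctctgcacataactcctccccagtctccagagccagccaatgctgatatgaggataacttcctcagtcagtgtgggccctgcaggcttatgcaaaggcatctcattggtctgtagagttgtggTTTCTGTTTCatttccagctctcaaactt

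Over the 300 bases around their starts the 2 promoters align at 261 columns, 94.6% of them identical. The motif, searched on both strands, was found once for Trim12c, and 2.98% of 32841 promoters of this length hold it. The Trim12a letters hold no match, but they end at a stretch that in Trim12c lies just before the match. The corresponding place of Trim12a falls past the 250 bases searched, though within the 300 bases aligned. It was not searched for the motif, so the 2 genes were not compared for it. Of their neighbours only Trim34a entered besides the pair itself, and it differed by −0.59 between the controls and by −0.27 between LTKO and LDKO. Under the entry level, Trim30d differed by −1.21 and −0.93 and Trim6 by 0.96 and 0.24.

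Zfp982, a zinc finger gene, read 4.06 in the Irs1/2-flox control and 6.50 in the other control, with 4.50 in LDKO and 6.58 in LTKO. Zfp984, among its nearest 20 measured genes on a side, was 4.86, 5.99, 5.11 and 5.92. Of the other neighbours, Fbxo44 was higher by 0.76 in the controls and by 0.83 in LTKO, and Gm21082 differed by −0.72 and −1.09. This neighbourhood and those below were looked at because of the values of the gene named first. Slamf7, an adhesion receptor of immune cells, was 6.29 and 6.18 in the arrays of the Irs1/2-flox line and 4.84 and 4.83 in those of the FoxO1-flox line. Its neighbour Atp1a4, a sodium pump subunit of sperm, took the opposite order with 4.31 and 4.46 against 5.77 and 6.04. Its neighbour Cd84, of the same receptor family as Slamf7, differed by −0.78 and −0.87. Slamf9, also of that family, did not share this, at 0.63 and −0.19. Around Ifi202b, an interferon-inducible gene that was higher by 1.28 and 0.86, Ifi203-ps differed by −1.13 and −1.18 and Ifi207 by −0.63 and −0.64. Ifi204 differed by −0.67 and −0.42. Not all neighbours repeated, since Ifi205 differed by −0.93 and 0.31 and Mndal by −0.11 and −0.03. Whether a probe of these gene families reads more than 1 member was not tested.

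Further genes that followed the line were not neighbours. Rps13, a ribosomal protein gene, read 6.41 in the Irs1/2-flox control and 4.27 in the other control, with 6.01 in LDKO and 4.57 in LTKO, while the 17 entered genes of the ribosome list had a median of −0.02. Gdf10, a growth factor of the bone morphogenetic protein family, was 6.35, 7.80, 6.03 and 7.25. Mmp12 was 6.65, 5.34, 6.64 and 5.21. Cxcl13 differed by −1.58 in the controls and by −1.15 in LTKO against LDKO, and the acute phase gene Saa3 by −1.05 and −1.34. The photoreceptor thioredoxin-like gene Nxnl1 (1.55 and 1.01) and Nxpe4 (−1.04 and −1.76) followed the line too. The other 6 were clones, a predicted gene, a microRNA and an immunoglobulin segment.

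By median size, genes near the floxed loci differed by about as much as genes elsewhere. Among the 40 nearest measured genes around Foxo1, 23 entered and their median size of difference was 0.18, close to the 0.16 of all genes. Stoml3 was the only 2-fold one among them, and it had the opposite sign in LTKO against LDKO, 1.22. The clock-regulated gene Noct differed by −0.70 and −0.42. Around Irs1, which is floxed in both lines, 18 entered with a median size of 0.13, and Mogat1 had the largest value at 0.80 (−0.38 in LTKO against LDKO). Wdfy1 differed by 0.60 and 0.71. Around Irs2 23 entered with a median size of 0.15 and none was 1.5-fold apart. At least 1.5-fold apart were 2 of the 23 around Foxo1 and 2 of the 18 around Irs1. Over all entered genes 2.06% were higher and 2.48% lower by that much, and 0.77% were 2-fold apart.

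Cell type lists differed in whether they recurred. Smooth muscle and pericyte genes had 15 of 20 members higher in LTKO than in LDKO, with a median of 0.38, beside the 0.35 between the controls. Macrophage markers were lower at 18 of 25 in LTKO, the same number as in the controls, with a median of −0.10. Lipid-associated macrophage markers were lower at 10 of 11, with a median of −0.45, Lgals3 at −0.65 in the controls and −1.27 in LTKO, and Gpnmb at −0.45 in each pair. Heat shock genes were lower at 12 of 17, with a median of −0.24. These lists had the same sign in both pairs. Motile cilia genes were higher at 20 of 20 in LTKO against LDKO with a median of 0.94, and glucocorticoid-responsive genes at 15 of 20 with one of 0.38. Mesothelial markers were higher at 15 of 22 with a median of 0.16, and immediate early genes at 15 of 22 with one of 0.14. These 4 lists had the opposite sign to the controls. Over all genes that entered, 57.3% were higher in LTKO, with a median of 0.05. The mesothelial and immediate early values were not far from this. Several fuel lists also had the opposite sign. Medians were −0.27 for complex I, −0.32 for the other complexes, −0.28 for pyruvate and TCA cycle genes and −0.20 for fatty acid oxidation. Branched-chain amino acid breakdown had −0.19. Fatty acid synthesis had −0.23, with 9 members higher and 11 lower. Triglyceride assembly was near zero at −0.02, with 7 higher and 7 lower, and so was glycolysis at −0.01. The lipolysis and lipid droplet list kept its sign at 0.05, with 10 higher and 8 lower. Fast-fibre muscle genes had 6 of 12 members higher and a median of −0.02. The LTKO array was also the highest for genes of neighbouring tissues and of liver. Over all measured members its mean level was 4.87 for epididymis, 5.74 for testis and sperm and 5.48 for liver, against at most 4.03, 4.63 and 4.38 in the other arrays. The part of these transcripts in the cilia and epithelial values of LTKO was not tested.

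The position of the LDKO and LTKO arrays between the controls divides the single genes in a similar way. For 35 of the 88 genes LDKO lay nearer to the Irs1/2-flox control and LTKO nearer to the Irs1/2:FoxO1-flox control, where 23.1% of all entered genes did so. For 23 genes both lay nearer to the Irs1/2:FoxO1-flox control and for 18 both lay nearer to the Irs1/2-flox control, where the shares of all genes were 29.2% and 29.6%. The remaining 12 genes were crossed, against 18.1%. By the stricter rule of at least 1 unit from all 3 other arrays, the Irs1/2-flox control stood alone at 6 genes, 2 where it was low and 4 where it was high, and the Irs1/2:FoxO1-flox control at 4, Mmp7, Sntn, Slc38a3 and 2610507I01Rik, where it was low.

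Rnase2a, a ribonuclease of eosinophils, and Fasn were the 2 genes at which the Irs1/2-flox control stood alone and low. Rnase2a was 3.94 there, against 6.05 in LDKO, 6.05 in the other control and 6.76 in LTKO. High there alone were Myh4, Ttn, Tnfrsf11b and Nr4a3. Tnfrsf11b, which encodes the decoy receptor osteoprotegerin, was 7.10 there, against 5.82 in LDKO, 5.56 in the other control and 5.93 in LTKO. Among the genes with large differences and no such position, Map3k7cl was 7.83, 6.01, 7.09 and 6.40, Rassf6 was 5.38, 7.16, 5.61 and 6.59, and the carboxylesterase gene Ces1f was 9.06, 10.27, 10.15 and 9.75. The adhesion gene Clmp differed by 1.44 by its brighter probe and by 0.55 by the other, and the protease gene Mmp7 by −1.60 and −0.11. The other probe of each gene was under the 5.15 level in every array, so its difference has no exact size.

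The promoters of Fasn and Myh4, the fat synthesis gene and the muscle gene at which the Irs1/2-flox control stood alone, are shown as examples of a low and a high one. They are the 250 bases before each start on GRCm38.p6, at chr11:120824548-120824797 on the minus strand and at chr11:67237562-67237811 on the plus strand. Capitals mark CCAAT, the box bound by NF-Y, on either strand for Fasn, and TATAAA, the TATA box, on either strand for Myh4.

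Fasn: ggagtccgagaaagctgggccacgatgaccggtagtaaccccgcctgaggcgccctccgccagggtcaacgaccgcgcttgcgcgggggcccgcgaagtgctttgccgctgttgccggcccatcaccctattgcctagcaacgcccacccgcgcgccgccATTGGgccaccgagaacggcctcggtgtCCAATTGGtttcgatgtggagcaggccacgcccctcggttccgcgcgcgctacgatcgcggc
Myh4: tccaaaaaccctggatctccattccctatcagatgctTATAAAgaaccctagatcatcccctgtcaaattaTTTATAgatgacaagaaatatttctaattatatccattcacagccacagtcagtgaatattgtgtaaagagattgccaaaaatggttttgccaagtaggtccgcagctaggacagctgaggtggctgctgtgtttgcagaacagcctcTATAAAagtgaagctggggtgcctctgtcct

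Fasn has 3 matches to CCAAT, 2 of which overlap, and 33.9% of promoters hold at least 1. Myh4 has 3 matches to TATAAA, of which 1 lies 31 to 26 bases before the start, and 12.4% of promoters hold the motif. A match is a description of the letters and not of binding.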

How the data were processed

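RNA from epigonadal fat of 4 groups was hybridised to 1 Affymetrix array each. The deposited values are log2 signals made by the authors with Affymetrix Expression Console and RMA, per the submitters' processing notes. Their versions were not given in the sources used here, nor was the set of arrays normalised together. Scanner values were not used here, so scale and centring were read from the table alone: medians over 41345 probes were 4.70, 4.73, 4.68 and 4.69 in the Irs1/2-flox control, LDKO, the Irs1/2:FoxO1-flox control and LTKO, and values ran from 1.44 to 13.41. These are levels and not ratios, so each difference takes its direction from the labels.

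Probes were named from the platform annotation: 23521 had 1 gene symbol, 1814 several and 16010 none. A gene was read from its probe with the highest mean over the 4 arrays, and entered where the higher control reached the median gene. Differences were computed with Python 3.11.15, pandas 2.3.3 and numpy 2.4.6 and tested on simulated data. Genes at least 2-fold apart were counted, with no p-value. Alternatives were the threshold, the filter, the probe rule, the normalisation, the list summary and leaving out genes of cell and tissue lists, the last chosen after seeing the data.

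The comparison and the 46 gene lists were chosen with earlier results of these data known. The motile cilia list and the description by nearest control were added after the values were seen. Older symbols were matched through RefSeq synonyms, and 79 of 879 list symbols were not matched. Genes were named by rule: the 15 largest differences each way, up to 4 members of each list by size, up to 8 of each position class, up to 15 that were 2-fold apart in both pairs, and Irs1, Irs2, Foxo1, Lep and Adipoq, leaving out predicted genes, clones, small RNAs and chemoreceptors. Other named genes, such as neighbours of these and further list members, were chosen after their values were seen.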

Additional observations from a re-analysis of the deposited data

Results flagged for a closer look

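The genes listed here were at least 2-fold apart in one direction between the controls and at least 2-fold apart in the opposite direction between LTKO and LDKO. With 1 array per group the difference between the pairs was not tested. The lactate receptor gene Hcar1 was 6.56 in the Irs1/2-flox control and 8.06 in the other control, and differed by −1.53 in LTKO against LDKO. Pnpla3 differed by 1.11 and −1.20 in the same order. The other 11 genes were lower in the Irs1/2:FoxO1-flox control and higher in LTKO. Genes of the motile cilia list among them were Rgs22 (−1.25 and 1.71), Stoml3 (−1.58 and 1.22), Cdhr3 (−1.17 and 1.10) and Rsph4a (−1.25 and 1.07). The fatty acid transporter gene Slc27a2 differed by −1.02 and 1.57, the amino acid transporter gene Slc38a3 by −1.03 and 1.13, and the peroxisomal oxidase gene Pipox by −1.09 and 1.04. Fermt1, an integrin activator of epithelia, differed by −1.08 and 1.37. Retreg1, a receptor for autophagy of the endoplasmic reticulum, differed by −1.28 and 1.24. Lrrc74b (−1.04 and 1.21) and Cabcoco1 (−1.23 and 1.09) complete the group.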

How the results depend on the processing

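No paired analysis was possible because the labels give no replicate numbers and each group has 1 array, so no array could be left out either. The counts of 30 higher, 58 lower and 19 genes shared with LTKO against LDKO became 236, 284 and 101 at 1.5-fold and 5, 7 and 4 at 3-fold. With a filter at the 70th percentile of genes 12 shared genes were counted, since fewer genes were tested. All other alternatives for these counts, namely no filter, the mean of all probes, quantile normalisation again, a loess curve removed and leaving out genes of cell and tissue lists, kept them within 1.5 times. Of 88 genes, 84 were also called after quantile normalisation, 85 after the loess curve was removed and 84 with the mean of all probes. Of 279 list values, 11 moved by at least 0.2 units and 12 changed sign, 9 of these from medians under 0.2 (stromal progenitor, testis and sperm, adipokine, fat pad expansion and growth hormone lists) and 3 from larger ones: the T and NK cell median of 0.22 over 5 entered genes was −0.086 over all measured genes and −0.087 as a mean, and the B and plasma cell value of −0.22 from 1 gene was 0.038 over all measured genes. Of 597 values of named genes, 592 stayed on their side of 2-fold. Clmp was 0.99 and Mmp7 −0.85 with the mean of all probes, Fasn 0.98 and Tnnt3 −1.04 with the loess curve removed, and Slc38a3 −0.99 after quantile normalisation. The cause was not tested. With 1 array per line, line, mouse, dissection and array cannot be told apart.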

Other observations

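Of 13 measured brown and beige fat genes 7 entered, 6 of them higher in the Irs1/2:FoxO1-flox control, with a median of 0.39 and Cidea at 1.25. Over all 13 the median was 0.12, with 11 higher. Ucp1, the uncoupling protein of brown fat, read 5.24 in the Irs1/2-flox control and 5.80 in the other control, with 4.83 in LDKO and 5.05 in LTKO. Of 17 entered interferon response genes 12 were higher, with a median of 0.25. Rsad2 differed by 0.85 and Ifit3 by 0.75, but Bst2, the tetherin gene, was 7.66 and 7.96 in the arrays of the Irs1/2-flox line and 6.40 and 7.07 in those of the FoxO1-flox line. Insulin signalling genes were higher at 15 of 20 with a median of 0.11. The 14 entered clock genes had a median of 0.13, with Per3 at 0.68. Of 20 measured proliferation genes 6 entered with a median of 0.24, and over all 20 the median was 0.11, with 19 higher.

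The 18 cholesterol synthesis genes had a median of 0.03, with squalene synthase (Fdft1) at 1.10 as its 2-fold member. Medians were −0.03 for collagens and matrix, 0.02 for adipokines, 0.01 for genes tied to fat pad expansion, −0.04 for the growth hormone and IGF axis, −0.05 for imprinted genes and 0.10 for FoxO and fasting response genes. The fatty acid binding gene Fabp5 had 4 probes, all higher in the Irs1/2:FoxO1-flox control, by 0.21 to 1.17, in a fatty acid uptake list with a median of 0.28.

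Probes without exactly 1 gene symbol were further apart more often than named genes. Of 17824 such probes 6203 entered, and 125 were 2-fold higher and 158 2-fold lower in the Irs1/2:FoxO1-flox control, which is 4.56% of those that entered against 0.77% of named genes. The first share counts single probes and the second counts genes, each read from its brightest probe, so the units differ. What these probes measure was not analysed here.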
